A study of Mus musculus with 13 samples.

Results

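The effect of estradiol together with a high-fat diet on the endometrium, the inner lining of the uterus, was examined against untreated controls. The comparison took every sample whose title carries the group name MIX (n = 3) and every sample with the name CON (n = 3), which are 6 of the 13 mice measured. All mice were female C57BL/6 mice without ovaries, removed at 6 to 8 weeks of age, and were kept on treatment for 12 weeks, so the controls also lacked ovarian hormones. CON mice ate normal chow and had no pellet. MIX mice carried a pellet under the skin that releases 17-β estradiol and ate a high-fat diet. Of the other mice, 4 had the pellet on chow (E2) and 3 had the high-fat diet without a pellet (HD). They entered the estimate of the spread, and their values are given beside those of MIX for some of the genes and lists. Where values are set against each other, those of the 3 CON mice come first, and each group is in the order of its replicate numbers. Neither the dose of the pellet nor the composition of the diet is recorded in the labels. Each mouse gave 1 array of endometrium scraped from the opened uterus, and the values are log2 expression per array feature, so a difference of 1 is a doubling.

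Estradiol acts in the uterus through nuclear receptors that switch on genes for secretion, water transport, epithelial growth and the recruitment of immune cells. In a cycling animal its action alternates with that of progesterone, whose ovarian source these mice lack. The lining holds a simple columnar epithelium with glands, a stroma and resident leukocytes, while the neighbouring cervix and vagina carry a stratified squamous epithelium marked by basal keratins and the transcription factor p63. A diet rich in fat raises lipid supply and body fat, and adipose tissue is a further source of estrogen and of inflammatory signals.

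Simple epithelial markers that define the lining were bright in all 6 mice. Krt8 was at 11.43, 11.43 and 11.23 in the CON mice and 11.62, 10.86 and 11.51 in the MIX mice, and Krt18, the other keratin of simple epithelia, ran from 10.66 to 11.16 over the 6. The arrays of MIX mice differed more among themselves than those of CON mice. The first principal component of the 6 arrays held 48.3% of the variance and set MIX replicate 3 apart, and the second held 22.1% and set MIX replicate 2 apart. MIX replicate 3 had the highest macrophage and granulocyte marker scores of the 6 mice, and MIX replicate 2 the highest stromal and endothelial ones, where a score is the mean log2 value of a list's members. All 3 MIX mice carry a lettered animal code in their titles, as only replicate 3 of the CON mice does, and the labels do not say what the codes mean. The style of the code was therefore a term of the fit, and the plain difference of the group means is given beside the fitted difference.

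Between MIX and CON, 2 genes passed the test, Bmp5 and Alas2. They are 2 of 65929 features (0.00303%) at an adjusted p under 0.05 in limma, a linear model with the mice as replicates. The p-values measure the spread between mice, with 1 array each. Leaving out any single CON mouse, HD replicate 1, or replicate 1 or 2 of E2 left 0 features past the threshold in limma, with 3856 to 5408 at an unadjusted p under 0.05. Without HD replicate 2, or without replicate 3 of E2, Alas2 alone passed. Without MIX replicate 3 Bmp5 did not pass, and 89 features passed without MIX replicate 2. The fitted differences of both genes kept their sign in each of these fits. In these bulk samples fewer cells of a type and less RNA per cell cannot be told apart.

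Bmp5 encodes a bone morphogenetic protein, a secreted ligand of the TGF-β superfamily that signals through SMAD proteins. It was at 6.0, 5.62 and 6.17 in the CON mice and at 4.17, 4.55 and 4.20 in the MIX mice. Every MIX mouse was more than 1 log2 unit below the lowest CON mouse. Bmp5 fell 3.08-fold in the group means, with a fitted difference of -1.88 (SE 0.18, adjusted p = 0.0268 in limma) and a plain difference of -1.62. The MIX values lie below the median of all array values, 4.61, where RMA compresses differences. The E2 mice were at 5.17, 4.94, 5.01 and 5.74, of which replicate 4 lay within the CON range and the others between the groups, while the HD mice had 6.23, 6.33 and 6.35, the highest values of the series. The 250 bases before the start of Bmp5 (GRCm38.p6, RefSeq, chr9:75775115-75775364, plus strand) are shown because it is the gene that fell, and they hold none of the motifs searched below.
Bmp5: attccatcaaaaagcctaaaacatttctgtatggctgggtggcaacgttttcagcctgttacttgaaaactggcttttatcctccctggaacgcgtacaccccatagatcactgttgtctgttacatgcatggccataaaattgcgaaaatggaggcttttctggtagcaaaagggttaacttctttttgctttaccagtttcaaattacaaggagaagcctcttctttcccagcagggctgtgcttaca

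Alas2 encodes the erythroid form of aminolevulinate synthase, which starts the heme pathway. It was at 7.61, 7.45 and 6.43 in the CON mice and 8.65, 8.27 and 8.66 in the MIX mice, so the groups did not overlap, and CON replicate 3 lay lowest. Alas2 rose by 1.36 in the group means (2.57-fold) and by 2.18 in the fit (SE 0.18, adjusted p = 0.0139 in limma). The code style term makes the fitted difference the larger: replicate 3 of CON, replicate 4 of E2 (7.1) and replicate 3 of HD (6.35), the lettered mice of those groups, were each the lowest of their group. Without the code style term Alas2 did not pass. Hba-ps4, a pseudogene of the α-globin cluster whose feature may also bind RNA of its near-identical functional copies, was at 7.16, 7.12 and 6.29 in CON and 7.77, 7.74 and 7.96 in MIX, with the same mouse lowest. Of 18 measured red-cell genes 13 had a lower and 5 a higher mean in MIX, with a median plain difference of -0.0749. All MIX mice lay above all CON mice in 4 of the 18, against 7.63% of all genes, and below them in 0, against 12.1%. Beside Alas2 the 4 included Fech, the last enzyme of heme synthesis (7.54, 7.43 and 7.55 against 7.87, 7.93 and 7.83). Their mean score ran from 5.58 to 5.77 in CON and from 5.62 to 5.89 in MIX, and the erythroid factor genes Gata1 and Klf1 lay close to the array medians in both groups, at 4.74 ± 0.036 and 4.68 ± 0.15 in CON and 4.64 ± 0.064 and 4.58 ± 0.15 in MIX. The part of blood content in the Alas2 difference was not tested.

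**Figure D1:**
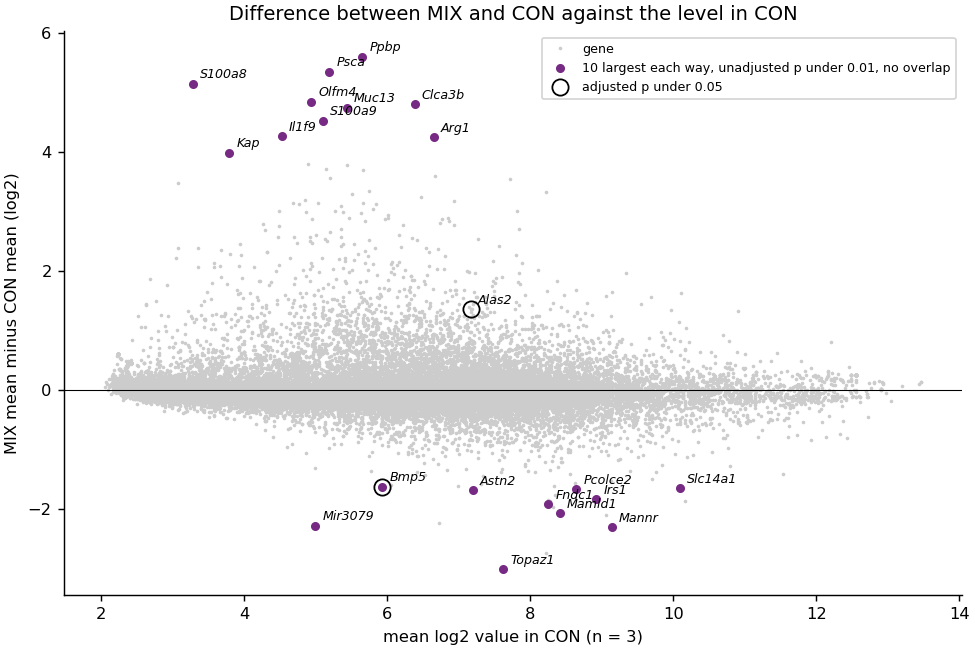
Difference of the MIX and CON group means (log2, vertical axis) against the CON mean (log2, horizontal axis), 1 point a gene with 1 symbol. Filled points are the 10 largest differences each way at an unadjusted p under 0.01 without overlap between the groups, and open circles mark Alas2 and Bmp5. The large positive differences, up to 5.60 for Ppbp, exceed the largest negative ones, down to -3.0 for Topaz1.

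Differences of more than 1 log2 unit were mostly positive. Of 30428 genes with a symbol of their own, 676 had a MIX mean more than 1 above the CON mean and 101 more than 1 below it. In 465 of the 676 and 74 of the 101 the mice of the groups did not overlap. Without regard to size, all MIX mice lay above all CON mice in 7.63% of genes and below them in 12.1%, and a split of that kind depends on the scaling. Array medians as deposited were 4.62, 4.66 and 4.61 in CON and 4.57, 4.56 and 4.48 in MIX. Every MIX median was thus below every CON median. With each array centred on its median the shares were 19.3% above and 4.55% below, and with quantile normalization 3140 genes lay above and 3048 below. Over all 65929 features the split was 3637 above and 8156 below as deposited, 10686 and 3013 with centring, and 5464 and 5978 with quantile normalization. At an unadjusted p under 0.05 in the fit, 5.49% of genes were higher and 4.89% lower in MIX. Counts of list members below are to be read against these shares. The lists and their members were chosen with earlier results of these data known, so counts above the shares are description only. Beside the genes taken by p, some defining markers and neighbours are named that were chosen after their values were seen: Krt8, Krt18, Epcam, Cdh1, Krt14, Dsg3, Anxa8, Lor, Ivl, Cd68, Adgre1, Marco, Cd163, Mpo, Elane, Calb2, Upk3b, Acta2, Adipoq, Gata1, Klf1, Mki67, Agr2, Bmpr1b, Id1, Pax2, Hoxa10, Hoxa11 and Mecom.

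The 12 genes with the smallest p among those higher in MIX without overlap were led, after Alas2, by Olfm4, a secreted glycoprotein of epithelial crypts and glands. Olfm4 was at 4.82, 5.20 and 4.79 in CON and 9.80, 9.17 and 10.38 in MIX, a plain difference of 4.84, or 28.7-fold, and a fitted one of 5.29 (SE 0.58, adjusted p = 0.0532 in limma). The lowest MIX mouse was about 4 units above the highest CON mouse. For Olfm4 the E2 mice were at 9.04, 9.38, 7.89 and 6.89 and the HD mice at 4.835, 4.903 and 5.131. Tanc2, a scaffold protein gene, was at 5.49, 5.55 and 5.67 against 6.32, 6.35 and 6.35, the tightest pair of groups among the 12. Rap2a, which encodes a small GTPase, had 6.72, 6.69 and 6.32 against 7.13, 7.30 and 7.30.

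Several of the 12 are genes of stratified epithelium. Trp63, the p63 transcription factor of basal epithelial cells, was at 4.62, 4.62 and 4.50 in CON and 5.27, 5.18 and 5.38 in MIX. The basal keratin gene Krt15 was at 6.68, 6.60 and 6.36 against 9.68, 8.39 and 8.73, and Krt13, a keratin of stratified mucosa, at 7.31, 6.82 and 6.66 against 10.51, 9.30 and 10.49. The gaps between the groups were wider than the spread within either one for all 3. Fitted differences were 0.69 (SE 0.08) for Trp63, 2.50 (SE 0.31) for Krt15 and 3.20 (SE 0.44) for Krt13, with adjusted p values of 0.0532, 0.0532 and 0.102 in limma.

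The vitamin D receptor gene Vdr was at 5.72, 5.72 and 5.40 in CON and 6.40, 6.49 and 6.66 in MIX, and the corepressor gene Tle4 at 6.20, 6.31 and 5.93 against 7.02, 7.20 and 7.32. Scarb2, a lysosomal membrane protein gene, had 8.62, 8.57 and 8.42 against 8.96, 9.15 and 9.32, and Tmem140, a membrane protein gene, 5.44, 5.49 and 5.21 against 7.17, 6.84 and 6.84. None of these passed, with adjusted p values of up to 0.111 over the 12. Without the code style term 15 of 65929 features passed (0.0228%), 13 higher and 2 lower in MIX. They were Tanc2, Trp63, Krt15, Olfm4, Tle4, Tmem140, Krt13, Vdr, Hmga2, Bmp5, the keratin gene Krt23, the ATP-gated channel gene P2rx4, the lipid flippase gene Atp10d, Plaat3, a phospholipase gene, and 1 unnamed feature.

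**Figure D2:**
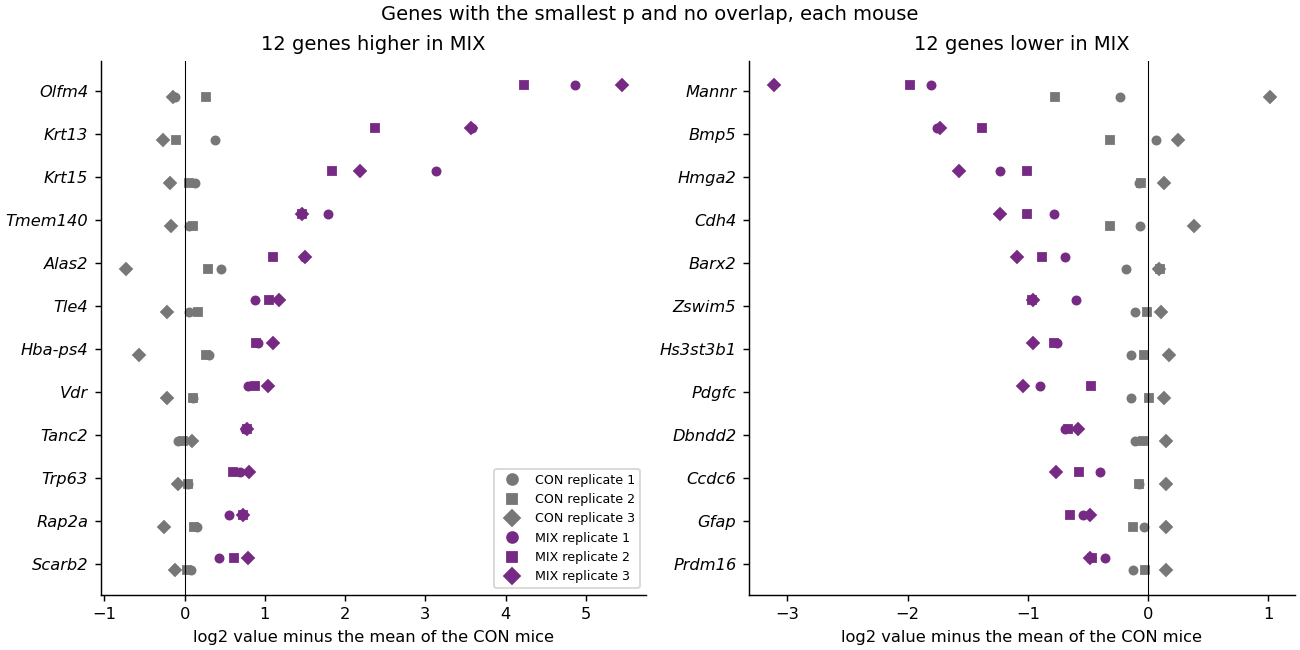
Log2 value of each CON mouse (grey) and MIX mouse (purple) minus the CON mean for the 12 higher and 12 lower genes with the smallest p and no overlap, with a marker shape for each replicate number. The 3 MIX mice lie to 1 side of the 3 CON mice in every row, by the choice of the genes, and the distance is largest for Olfm4 among the higher and Mannr among the lower genes.

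The 12 genes lower in MIX with the smallest p had group differences between -0.44 and -2.30. Cdh4, which encodes R-cadherin, was at 6.91, 6.66 and 7.36 in CON and 6.19, 5.97 and 5.74 in MIX (fitted -1.34, SE 0.16, adjusted p = 0.0532 in limma). Hs3st3b1, a heparan sulfate sulfotransferase gene, was at 7.0, 7.11 and 7.32 against 6.39, 6.36 and 6.19. Hmga2, a chromatin architectural protein best known from embryonic and mesenchymal cells, was at 7.85, 7.86 and 8.06 against 6.69, 6.91 and 6.35, which leaves close to 1 unit between the groups.

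The homeobox gene Barx2 had 7.17, 7.46 and 7.45 in CON and 6.67, 6.48 and 6.27 in MIX, and Pdgfc, a platelet-derived growth factor that acts on stromal cells, 8.26, 8.41 and 8.53 against 7.50, 7.92 and 7.36. Prdm16, which encodes a histone methyltransferase, had 6.37, 6.47 and 6.64 against 6.14, 6.02 and 6.01, the smallest difference of the 12. Mannr, a long noncoding RNA next to the gene Mecom, had 8.90, 8.36 and 10.15 against 7.33, 7.16 and 6.03, where CON replicate 3 stood more than 1 unit above the other CON mice. Mecom itself, named here after its values were seen, was at 8.93, 8.73 and 9.10 against 8.52, 8.31 and 7.69. Mecom and Prdm16 encode related zinc finger proteins. Ccdc6, Zswim5, Dbndd2 and Gfap complete the 12, with plain differences of -0.58, -0.84, -0.65 and -0.56. Adjusted p values ran up to 0.184 among the 12.

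The levels of these 24 genes in the other groups are given as a description. The E2 and HD mice entered the fit whose p ranked the genes, and the same MIX values chose the genes. Counts above the shares over all genes therefore say nothing of the members. All 3 MIX mice were above all 4 E2 mice for 8 of the higher genes (2.06% of all genes) and below them for 6 of the lower ones (4.43%). They were above all 3 HD mice for 11 of the higher genes (5.33%) and below them for 10 of the lower ones (9.41%). The E2 mean lay between the CON and MIX means for all 12 higher and all 12 lower genes. Comparisons of E2, HD and MIX with CON share the CON mice, so for E2 and HD only values are given. For Trp63 the E2 mice were at 4.59, 4.60, 4.51 and 4.62 and the HD mice at 4.39, 4.39 and 4.50, all within or below the range of the CON mice. The Trp63 values of CON, E2 and HD lie close to or below the median of all array values, 4.61, where RMA compresses differences. Krt15 was intermediate in E2 (7.63, 7.48, 7.12 and 7.35) and at the CON level in HD (6.63, 6.61 and 6.41). Hmga2 was at 7.19, 7.34, 7.54 and 7.61 in E2 and 7.88, 7.54 and 7.67 in HD.

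Tests of the difference between MIX and each single treatment used the same fit. Between MIX and HD, Alas2 (1.89, SE 0.18, adjusted p = 0.0265), Trp63 (0.84, SE 0.0831, adjusted p = 0.0265) and Bmp5 (-2.25, SE 0.178, adjusted p = 0.0095 in limma) passed among the 24, and no other of the 65929 features did (0.00455% in all). The code style term makes the fitted difference of Alas2 the larger here too. Its group means were 8.53 in MIX and 7.46 in HD, and the HD mice were at 7.95, 8.085 and 6.35, the lettered mouse lowest. Between MIX and E2 0 of the 65929 features passed in limma (0.0%). An unadjusted p under 0.05 was found for 1832 of them (2.78%), and the adjusted p was 0.196 for Alas2, 0.227 for Trp63 and 0.91 for Bmp5 in limma. A difference that did not pass is not shown to be absent, with 3 and 4 mice.

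**Figure D3:**
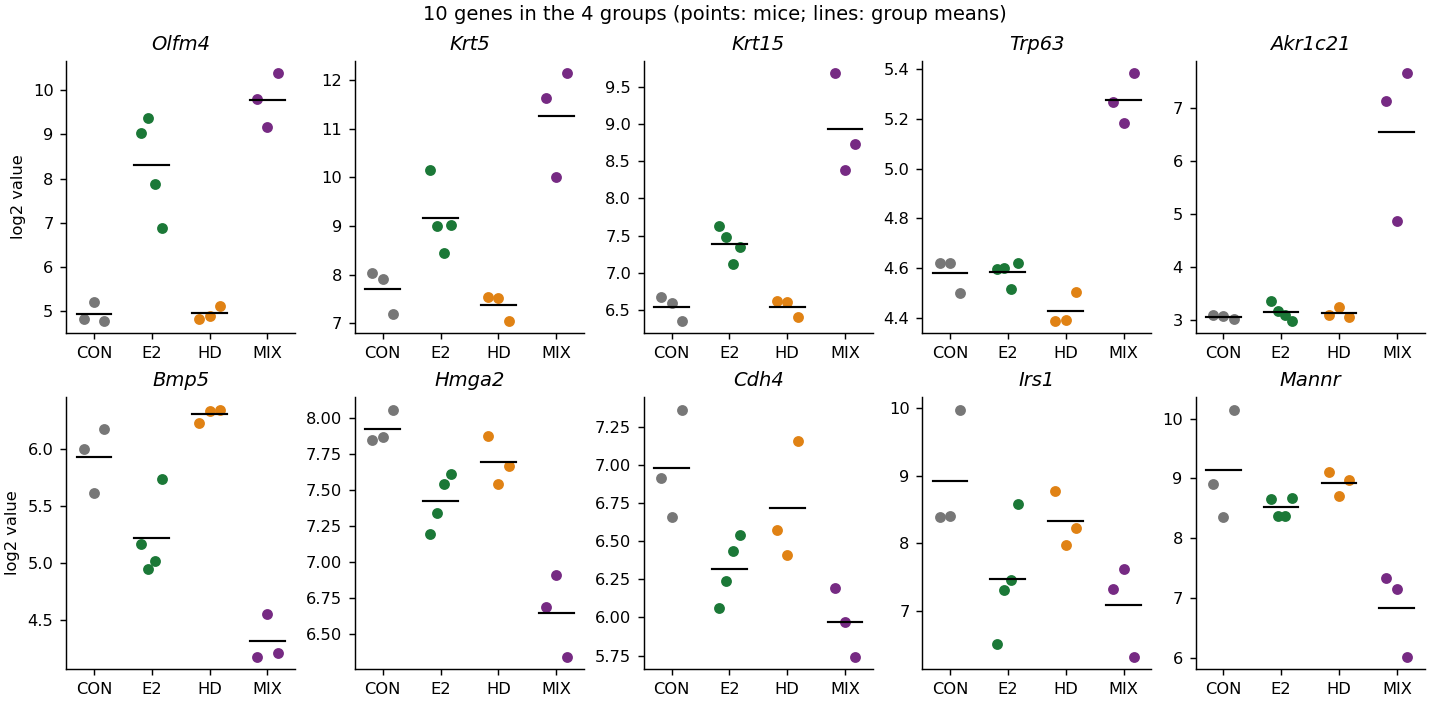
Log2 values of 10 genes in the 4 groups, with a point for each mouse, a line at the group mean and a separate vertical scale for each gene. For Akr1c21, Trp63 and Krt15 every MIX mouse lies above every mouse of the other groups. Olfm4, Krt5 and Krt15 also lie above CON in the E2 mice, and Bmp5 is lowest in MIX and highest in HD.

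Among genes at an unadjusted p under 0.01 without overlap, Ppbp had the largest difference of group means. Ppbp, a chemokine gene of platelets and activated epithelia, was at 6.91, 5.28 and 4.75 in CON and 11.30, 9.73 and 12.71 in MIX, a plain difference of 5.60 (48.4-fold). Psca, a surface antigen of stratified and glandular epithelia, had 6.07, 4.94 and 4.56 against 10.75, 9.17 and 11.70. S100a8, which encodes a subunit of the neutrophil protein calprotectin, had 3.67, 3.17 and 3.0 against 8.10, 5.82 and 11.37, and S100a9, its partner, 5.35, 5.16 and 4.79 against 9.23, 7.25 and 12.41. For each of the 4, MIX replicate 3 was highest and MIX replicate 2 lowest of the MIX mice. The CON values of S100a8 lie below the array medians. The E2 mean minus the CON mean was 3.68 for Ppbp, 3.38 for Psca, 4.31 for S100a8 and 3.84 for S100a9. In the same order the HD mean minus the CON mean was 1.07, 0.79, 0.92 and 0.75.

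Clca3b, a gene of the calcium-activated chloride channel regulator family, was at 9.03, 5.43 and 4.69 against 11.42, 9.59 and 12.55, and here CON replicate 1 came within 1 unit of the lowest MIX mouse. Muc13, a transmembrane mucin, had 6.49, 5.13 and 4.66 against 10.86, 8.91 and 10.75. Il1f9, an interleukin-1 family cytokine of epithelia, had 5.16, 4.66 and 3.74 against 8.82, 6.74 and 10.79. Arg1, the arginase of macrophages and keratinocytes, had 7.36, 7.01 and 5.58 against 11.50, 9.74 and 11.45. The E2 mice had 10.67, 11.10, 7.96 and 7.39 and the HD mice 6.53, 10.42 and 10.98, so HD replicate 1 lay within the CON range and E2 replicate 4 just above it. Kap, an androgen-regulated gene known from kidney, had 3.94, 3.93 and 3.51 against 8.17, 5.06 and 10.11. The E2 mean minus the CON mean was 4.055 for Clca3b, 3.19 for Muc13, 3.90 for Il1f9 and 0.80 for Kap. In the same order the HD mean minus the CON mean was 1.63, 1.97, 1.36 and 0.22. The fitted adjusted p of these 10 genes, Olfm4 aside, lay between 0.251 and 0.443 in limma, and the MIX mice of S100a8 and Kap differed by more than 5 units.

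Among the largest negative differences, several rested in part on CON replicate 3. Topaz1, a germ cell gene, was at 6.11, 7.14 and 9.60 in CON and 4.53, 4.86 and 4.44 in MIX. Irs1, the insulin receptor substrate, was at 8.38, 8.40 and 9.98 against 7.33, 7.62 and 6.33, and the urea transporter gene Slc14a1 at 9.22, 9.54 and 11.50 against 9.22, 8.72 and 7.38, where the first replicates of both groups were level to the second decimal. In all 3 the lettered CON mouse was higher than the other CON mice by more than 1 unit. CON replicate 3 was also the highest of its group for Mamld1 (8.21, 7.72 and 9.29 against 6.02, 6.31 and 6.68) and for Pcolce2, a procollagen processing enhancer (8.07, 8.62 and 9.24 against 7.43, 7.31 and 6.20). The CON mice were closer together for Fndc1 (8.32, 7.78 and 8.64 against 7.38, 5.89 and 5.74) and for Astn2 (7.19, 6.88 and 7.53 against 5.30, 5.96 and 5.30).

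**Figure D4:**
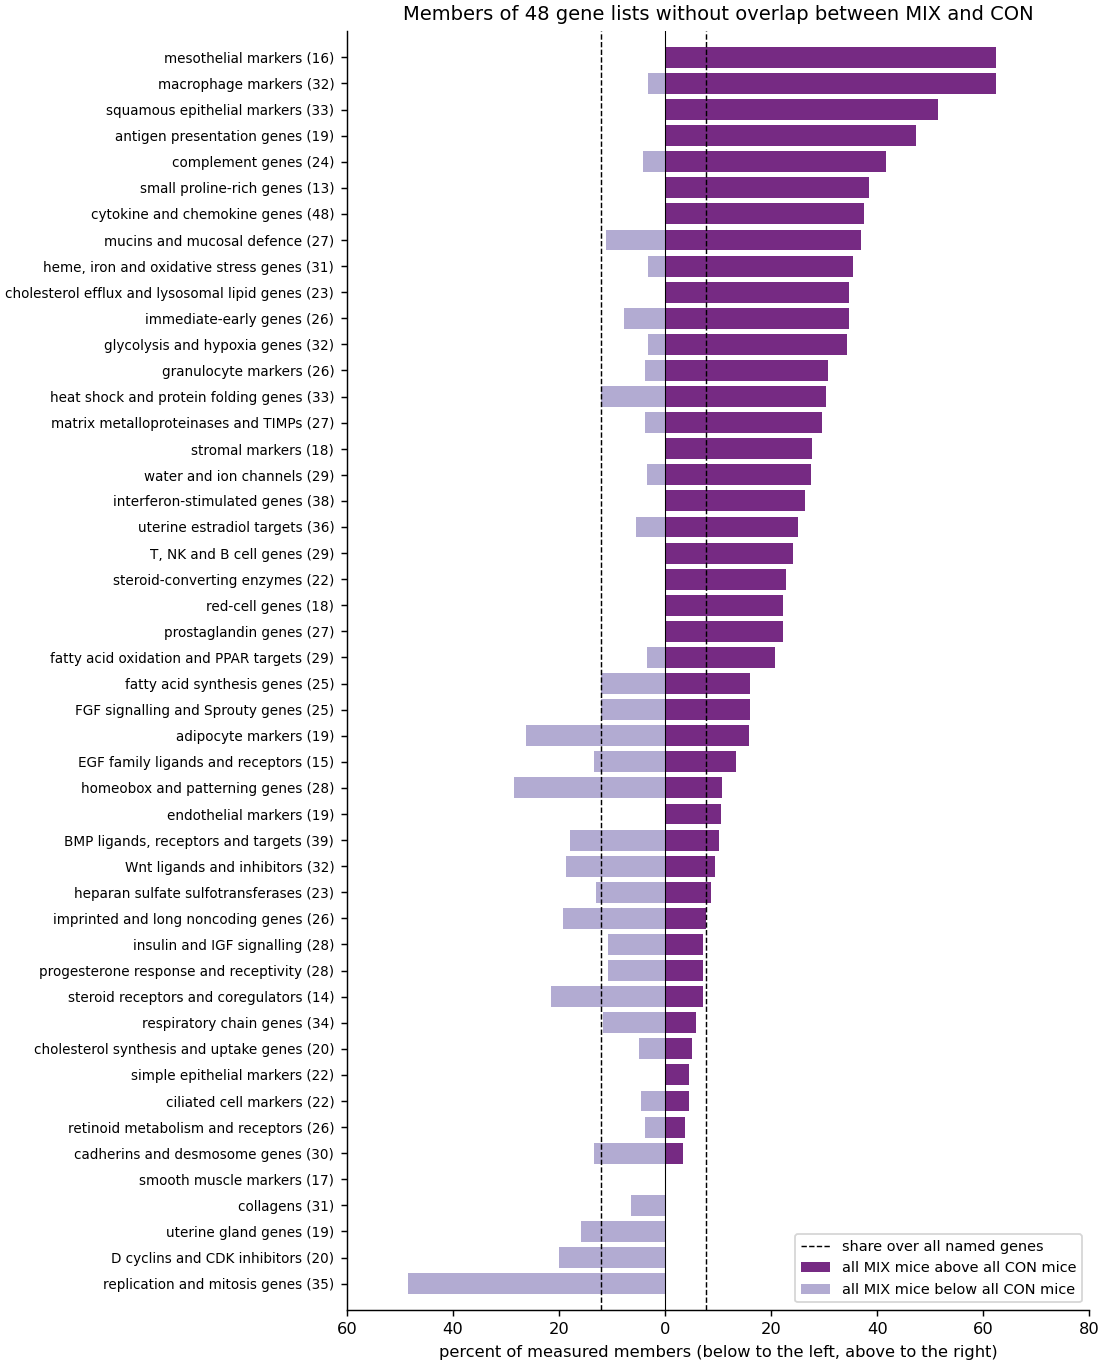
Percent of measured members of each of 48 gene lists whose 3 MIX mice all lay above (right) or all below (left) the 3 CON mice, with the number measured in parentheses and dashed lines at the shares over all named genes, 7.63% and 12.1%. Mesothelial, macrophage and squamous lists reach furthest to the right, with 10 of 16, 20 of 32 and 17 of 33 members, and replication and mitosis genes furthest to the left, with 17 of 35.

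Of the 1175 distinct genes measured in the lists Bmp5 and Alas2 passed, so the lists are described by mice without overlap. The direction of the squamous, mesothelial and macrophage lists did not turn with the scaling: 20, 11 and 21 members lay above with centred arrays and 18, 10 and 21 with quantile normalization, and 0 below in both.

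Of uterine genes that respond to estradiol, 9 of 36 measured lay above in all MIX mice and 2 below, and a median plain difference of 0.466. Ltf, which encodes lactoferrin, was already among the bright features in CON, at 12.49, 12.08 and 12.02, and was at 13.19, 12.57 and 13.26 in MIX. Lcn2, lipocalin 2, overlapped between the groups (11.80, 11.77 and 11.21 against 12.03, 11.59 and 12.13). The small proline-rich gene Sprr2b had 9.34, 8.57 and 6.73 against 11.51, 10.52 and 12.62, and Sprr2d 6.91, 5.17 and 4.23 against 9.11, 7.23 and 11.31, although members of that gene family are so alike that their probes may not separate them. Agr2, a protein folding factor of mucus cells, had 5.78, 6.16 and 5.31 against 10.63, 9.56 and 7.10. Wnt7a, the epithelial Wnt ligand of the uterus, ran against the list at 8.71, 8.07 and 8.88 against 6.79, 7.19 and 7.47.

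Among steroid receptor genes Pgr, for the progesterone receptor, was at 10.46, 10.24 and 10.91 in CON and 9.66, 10.02 and 8.81 in MIX (fitted -1.14, SE 0.49, adjusted p = 0.578 in limma), with all MIX mice below all CON mice. Esr1, the estrogen receptor α gene, overlapped between the groups, at 9.16, 9.55 and 9.62 against 9.19, 9.35 and 8.19. Gata2, a partner of the progesterone receptor, had 8.94, 9.0 and 9.04 against 8.58, 8.54 and 8.11. Foxa1, a pioneer factor for steroid receptors, lay on the other side, at 5.31, 6.66 and 5.51 against 8.93, 6.88 and 8.82. Of 14 measured receptor and coregulator genes 1 lay above and 3 below in all MIX mice, or 2 and 2 with centred arrays. The list of progesterone response genes had 2 above and 3 below of 28, or 4 and 3 with centred arrays, with Msx2 (8.15, 7.82 and 8.34 against 7.64, 6.95 and 7.03) lower and Acod1, an enzyme that makes itaconate in implanting uterus and in macrophages, higher (5.80, 5.01 and 4.62 against 7.59, 7.80 and 11.20). For Acod1 the E2 mice were at 10.57, 8.72, 8.57 and 8.47 and the HD mice at 6.149, 5.009 and 6.205. Uterine gland genes had 0 above and 3 below of 19, or 3 and 2 with centred arrays.

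Of the enzymes that convert steroids, Akr1c21 stood apart. This hydroxysteroid dehydrogenase gene was dim in CON, at 3.10, 3.08 and 3.02, and at 7.14, 4.87 and 7.66 in MIX (fitted 3.58, SE 0.62, adjusted p = 0.184 in limma). The E2 mice were at 3.36, 3.18, 3.10 and 3.0 and the HD mice at 3.10, 3.25 and 3.06, so MIX replicate 2, the lowest of its group, was still more than 1 unit above every mouse of the other groups. Akr1c18, which inactivates progesterone, had 5.17, 4.55 and 4.18 against 7.71, 5.81 and 7.04. The E2 mice were at 6.68, 10.07, 6.04 and 5.24, where replicate 2 stood more than 3 units above the others. Of 22 measured members 5 lay above and 0 below in all MIX mice.

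Of the markers of squamous epithelium 17 of 33 lay above in all MIX mice and 0 below, with a median plain difference of 0.916. Krt5, the basal keratin that pairs with keratin 14, was at 8.03, 7.91 and 7.20 in CON and at 11.64, about 10 and 12.14 in MIX, and Krt14 at 6.26, 6.23 and 6.0 against 9.06, 7.09 and 10.18. The desmosome gene Dsg3 had 5.12, 4.75 and 4.72 against 7.51, 6.10 and 9.95, and Anxa8, an annexin of squamous cells, 7.08, 7.39 and 6.31 against 9.77, 8.68 and 10.66. MIX replicate 2 was lowest of the MIX mice for all 4, and its list score of 6.02 compares with 7.01 and 7.22 in the other MIX mice and with 5.50 to 5.74 in CON. Lor and Ivl, markers of late cornification named after their values were seen, differed less. Lor, the loricrin gene, was at 5.48, 5.51 and 5.50 against 5.46, 5.37 and 5.52, and Ivl, involucrin, at 4.71, 4.67 and 4.64 against 5.63, 4.40 and 4.72. The small proline-rich gene Sprr1a, on the same list, was above in all MIX mice (8.07, 8.38 and 6.24 against 10.97, 9.19 and 9.78). The median differences of the list were 0.097 for E2 and 0.012 for HD against the same CON mice. The list score was 5.80 to 6.44 in E2 and 5.61 to 5.74 in HD. Every E2 mouse thus lay above every CON mouse, and E2 replicate 1, at 6.44, lay above MIX replicate 2. With 1 mouse left out the median ran from 0.647, without MIX replicate 3, to 1.27, without MIX replicate 2. At an unadjusted p under 0.05, 19 of 33 members were higher and 2 lower with all mice (5.49% and 4.89% of all genes). The 2 lower were Klf5 (fitted -0.248) and Gsdmc (fitted -0.309), whose mice overlapped between the groups. The count of higher members was 24 without MIX replicate 2 (7.59%), 15 without MIX replicate 3 (4.35%) and 10 without CON replicate 3 (3.39%). Whether a different share of squamous tissue was scraped with the lining was not tested.

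Simple epithelial markers were level, with 1 of 22 above and 0 below in all mice and a median of 0.040. Epcam was at 10.67, 10.48 and 10.49 in CON and 10.89, 9.96 and 10.90 in MIX, and E-cadherin, Cdh1, at 11.16, 11.06 and 11.03 against 11.56, 10.61 and 11.21. Prom1, a protein of apical protrusions, was the member above in all MIX mice (10.48, 10.23 and 9.54 against 11.74, 10.99 and 10.95). Ciliated cell markers had 1 of 22 above and 1 below, or 4 and 0 with centred arrays. Among cadherin and desmosome genes 1 of 30 lay above and 4 below, or 4 and 3 with centred arrays. P-cadherin, Cdh3, which marks basal cells, had 7.23, 7.04 and 6.58 against 7.93, 7.77 and 8.47, while N-cadherin, Cdh2, had 6.53, 6.10 and 6.75 against 5.59, 6.06 and 5.66 and the catenin gene Ctnnd2 6.74, 6.73 and 6.97 against 5.80, 5.70 and 5.65.

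Of 27 measured mucin and defence genes 10 lay above and 3 below in all MIX mice, with a median of 0.818 that was 0.338 at the lowest when 1 mouse was left out. Wfdc2, a protease inhibitor of genital tract epithelium, was among those below, at 9.80, 9.87 and 9.61 against 9.39, 9.01 and 9.07. Of 13 small proline-rich genes 5 lay above, Sprr1a among them (8.07, 8.38 and 6.24 against 10.97, 9.19 and 9.78). Of 29 water and ion channel genes 8 lay above and 1 below. Ano1, a calcium-activated chloride channel, had 7.69, 7.51 and 7.28 against 8.75, 9.44 and 9.03, and Scnn1a, the α subunit of the epithelial sodium channel, 6.54, 6.50 and 6.64 against 7.49, 7.12 and 7.79.

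Macrophage markers had 20 of 32 members above in all MIX mice and 1 below, and a median plain difference of 1.06. Cybb, the phagocyte oxidase subunit, was at 6.40, 5.61 and 5.51 in CON and 8.65, 7.76 and 10.48 in MIX, and Cd68, a lysosomal protein of macrophages, at 8.75, 8.56 and 8.67 against 10.13, 9.28 and 9.78. Adgre1, an adhesion receptor that marks mature tissue macrophages, had 6.01, 5.33 and 5.50 against 6.14, 7.29 and 8.32, so CON replicate 1 and MIX replicate 1 nearly met. The list score was 6.22 to 6.72 in CON and 7.09, 7.39 and 8.36 in MIX replicates 1 to 3. E2 mice had 7.09 to 7.73 and HD mice 6.90 to 7.11, so the MIX range overlapped both. Without MIX replicate 3 the median was 0.726. At an unadjusted p under 0.05 in the fit, 20 of 32 members were higher and 1 lower (5.49% and 4.89% of all genes). The count of higher members was 6 without CON replicate 3 (3.39%). The lower member was Laptm5, at 7.955, 7.37 and 7.93 against 6.75, 7.06 and 7.91. The member below in all MIX mice was Cd163, the scavenger receptor for haptoglobin-bound hemoglobin (4.30, 4.38 and 4.38 against 4.24, 4.22 and 4.20), and Marco, another scavenger receptor, was level (5.51, 5.67 and 5.45 against 5.52, 5.49 and 5.54).

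Other immune lists leaned the same way. Cytokine and chemokine genes had 18 of 48 above and 0 below, with the alarmin Il33 at 6.90, 6.60 and 6.25 against 8.60, 8.20 and 9.93 and the neutrophil attractant Cxcl5 at 5.77, 5.51 and 5.63 against 8.46, 6.58 and 10.78. At an unadjusted p under 0.05 their count was 14 of 48 with all mice, 5 without MIX replicate 3 (4.35% of all genes) and 4 without CON replicate 3 (3.39%). Complement genes had 10 of 24 above and 1 below, among them C4b (8.15, 7.88 and 7.55 against 9.43, 9.42 and 10.09) and Clu, clusterin (9.61, 9.15 and 8.41 against 10.58, 10.52 and 10.82). Antigen presentation genes had 9 of 19 above and 0 below, with H2-Ab1, a class II chain, at 9.19, 8.21 and 8.13 against 9.35, 9.64 and 10.52. At an unadjusted p under 0.05, 7 of the 19 were higher with all mice (5.49% of all genes) and 0 without CON replicate 3 (3.39%). Their fitted median of 0.417 was 0.060 without that mouse. For complement genes the counts were 10 and 3 of 24, and the fitted medians 0.813 and 0.480.

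Granulocyte markers had 8 of 26 above and 1 below, with list scores of 5.48, 5.52 and 6.89 in MIX replicates 1 to 3 and 4.90 to 5.04 in CON. Csf3r, the receptor for granulocyte growth factor, showed that spread, at 5.55, 5.41 and 5.16 against 6.69, 6.0 and 9.60. The neutrophil granule genes Mpo (4.97, 5.10 and 4.92 against 4.97, 4.81 and 4.97) and Elane (4.42, 4.62 and 4.34 against 4.42, 4.08 and 4.20) stayed near the array medians. Genes of T, NK and B cells had 7 of 29 above and 0 below. Interferon-stimulated genes had 10 of 38 above and 0 below, with a plain median of 0.432 but a fitted median of 0.105, or -0.748 without CON replicate 3, and Gbp2, a guanylate-binding protein gene, at 8.32, 7.86 and 7.47 against 9.96, 9.32 and 10.77. Prostaglandin genes had 6 of 27 above and 0 below, with the degrading enzyme gene Hpgd at 8.03, 7.75 and 7.60 against 8.43, 9.65 and 8.79, and matrix metalloproteinases and TIMPs 8 of 27 above and 1 below.

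Markers of the outer and deeper uterine layers were measured too, since a scraped lining can carry them. Mesothelial markers had 10 of 16 above and 0 below in all mice and a median of 1.0, with Msln, mesothelin, at 7.41, 6.77 and 6.65 against 8.19, 8.71 and 9.42 and Upk3b at 9.30, 9.10 and 8.89 against 9.65, 10.30 and 10.09. Their score was 6.90 to 7.28 in CON and 7.62 to 8.15 in MIX. It was 7.37 to 8.25 in E2 and 7.36 to 7.43 in HD, so every E2 and HD mouse lay above the CON mice. E2 replicate 1 lay above every MIX mouse. The median differences of the list from CON were 0.77 for E2 and 0.258 for HD. Calb2, calretinin, stayed below the array medians in every CON and MIX mouse, at 3.12 to 3.27. Stromal markers had 5 of 18 above and 0 below, and their median of 0.481 was 0.252 without MIX replicate 2. Endothelial markers had 2 of 19 above and 0 below, with a median of 0.334 that turned to -0.173 without MIX replicate 2. Smooth muscle markers had 0 of 17 above and 0 below, with the contractile actin gene Acta2 at 7.45, 8.57 and 9.80 against 7.74, 9.21 and 9.75. Collagens had 0 of 31 above and 2 below, or 5 and 1 with centred arrays. The part of a changed mix of layers in the gene differences was not tested.

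**Figure D5:**
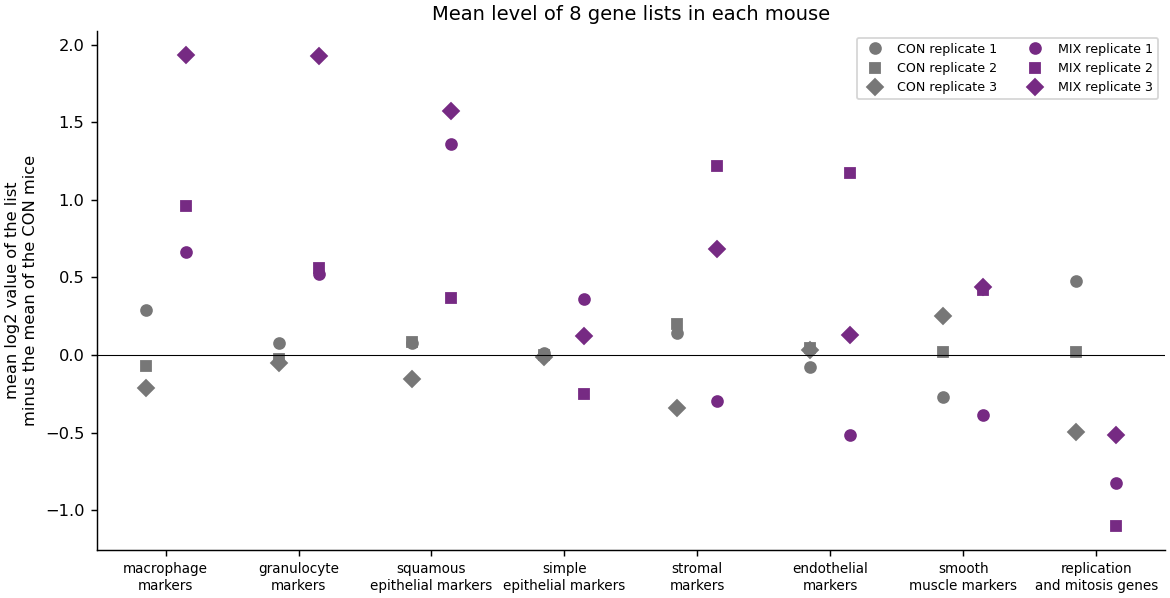
Mean log2 value of the members of 8 lists in each mouse, minus the CON mean of that list (vertical axis), with CON mice in grey and MIX mice in purple and a marker shape for each replicate number. MIX replicate 3 is highest for macrophage, granulocyte and squamous markers, MIX replicate 2 for stromal and endothelial markers, and every MIX mouse lies below every CON mouse for replication genes.

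Cholesterol efflux and lysosomal lipid genes had 8 of 23 above and 0 below in all mice, with a median of 0.419. Lipa, lysosomal acid lipase, was at 7.78, 7.39 and 7.36 in CON and 8.43, 9.28 and 9.44 in MIX, Npc2, a lysosomal cholesterol carrier, at 6.92, 6.76 and 6.66 against 7.12, 7.36 and 7.62, and the cholesterol exporter gene Abcg1 at 6.87, 6.62 and 6.41 against 7.09, 7.46 and 7.57. Macrophages are rich in these genes, and the macrophage score was higher in the same mice, whose part in these values was not tested. Fatty acid oxidation genes and PPAR targets had 6 of 29 above and 1 below. Fabp5, an epidermal fatty acid carrier, had 5.33, 5.48 and 4.96 against 7.32, 6.50 and 6.53, whereas Ppargc1a, the coactivator of mitochondrial genes, had 7.24, 7.37 and 8.30 against 6.98, 6.96 and 5.59.

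Fatty acid synthesis genes had 4 of 25 above and 3 below. The elongase gene Elovl6 was at 8.27, 8.11 and 8.46 against 6.93, 7.48 and 6.41, and the desaturase gene Scd1 at 8.40, 8.03 and 8.81 against 7.10, 8.03 and 7.31, where replicates 2 of both groups met. Cholesterol synthesis genes had 1 of 20 above and 1 below. Adipocyte markers had 3 of 19 above and 5 below as deposited, 5 and 0 with centred arrays and 2 and 1 with quantile normalization, and Adipoq, adiponectin, lay below the array medians in every CON and MIX mouse, at 3.07 to 4.10. Glycolysis and hypoxia genes had 11 of 32 above and 1 below, with a median of 0.615. Adm, adrenomedullin, was at 6.48, 6.02 and 5.67 against 8.15, 7.97 and 8.02, and P4ha1, a collagen prolyl hydroxylase, at 7.56, 6.91 and 6.92 against 8.37, 7.82 and 8.41. Respiratory chain genes had 2 of 34 above and 4 below, or 6 and 1 with centred arrays. Heme, iron and oxidative stress genes had 11 of 31 above and 1 below, with the iron carrier gene Trf at 8.22, 7.38 and 7.89 against 9.09, 9.52 and 10.31.

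Replication and mitosis genes were the main list on the lower side. All 35 measured members had a lower mean in MIX, 17 of them without overlap, and the median plain difference was -0.802, or -0.479 in the fit. Mki67, the proliferation antigen, was at 10.25, 9.80 and 9.21 in CON and 8.40, 8.20 and 8.52 in MIX, and the replication helicase gene Mcm3 at 8.76, 8.12 and 8.29 against 6.86, 6.82 and 7.62. None of the 35 reached an unadjusted p of 0.05. The list score was 7.14 to 8.11 in CON and 6.53 to 7.12 in MIX, but it ran from 6.24 to 8.13 in E2 and from 6.28 to 8.18 in HD, so single mice of the other groups covered the whole range. With centred arrays 10 of the 35 lay below without overlap. D cyclins and CDK inhibitors had 0 of 20 above and 4 below, or 3 and 4 with centred arrays, with Ccnd2, cyclin D2, at 9.12, 9.34 and 8.94 against 7.22, 7.81 and 7.80 and an HD mean of 7.13.

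Among signalling families, of 39 BMP ligands, receptors and targets, 4 lay above and 7 below in all MIX mice as deposited, but 10 and 1 with centred arrays. Beside Bmp5, Bmp6 was at 7.21, 6.90 and 6.80 in CON and 7.69, 7.50 and 7.45 in MIX and Bmp3, an antagonist of the family, at 5.83, 5.92 and 5.61 against 6.04, 7.07 and 6.38. Among receptors Bmpr1b had 6.10, 5.82 and 6.80 against 5.73, 5.63 and 5.33, and the inhibitor Smad6, a target of the pathway, 7.34, 7.27 and 7.50 against 7.24, 7.06 and 6.94. The target Id1 overlapped between the groups (9.45, 9.28 and 9.87 against 9.05, 9.19 and 9.29).

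Wnt genes had 3 of 32 above and 6 below, or 3 and 4 with centred arrays, with the inhibitor Frzb at 5.58, 5.88 and 5.88 against 6.82, 7.12 and 7.74, the inhibitor Wif1 at 5.81, 5.88 and 5.94 against 5.20, 5.02 and 5.30 and the gland stem cell receptor Lgr5 at 6.90, 6.10 and 6.25 against 4.67, 5.59 and 4.86. FGF genes had 4 of 25 above and 3 below. The ligand gene Fgf18 had 8.21, 8.16 and 8.03 against 6.94, 7.67 and 6.95, and the pathway inhibitor genes Spry1 7.31, 7.45 and 7.16 against 6.70, 6.96 and 6.61 and Spred2 8.52, 8.47 and 8.75 against 8.13, 7.78 and 7.75. EGF family genes had 2 of 15 above and 2 below, the receptor Erbb4 at 5.41, 6.22 and 6.53 against 4.64, 4.35 and 4.37. Insulin and IGF genes had 2 of 28 above and 3 below, or 5 and 2 with centred arrays, with Irs1 among those below, and retinoid genes 1 of 26 above and 1 below. Heparan sulfate enzymes had 2 of 23 above and 3 below, or 4 and 2 with centred arrays, with Hs3st3a1, the paralog of Hs3st3b1, at 6.07, 6.21 and 6.42 against 5.85, 5.96 and 5.73.

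Homeobox and patterning genes had 8 of 28 below and 3 above as deposited, and 6 and 5 with centred arrays. Dlx5, a homeobox gene of the uterine epithelium, was at 10.61, 10.62 and 11.04 in CON and 10.47, 10.07 and 9.47 in MIX, Six4 at 6.86, 6.67 and 6.47 against 6.10, 6.04 and 5.88, and Pax2, a factor of the duct that forms the uterus, at 8.08, 8.13 and 8.21 against 7.83, 7.50 and 6.60. Meis2 ran the other way, at 6.65, 6.38 and 7.02 against 7.66, 7.34 and 7.04. Hoxa10 and Hoxa11, which pattern the uterus, overlapped, and MIX replicate 2 was highest for both, at 8.65 and 8.12. Immediate-early genes had 9 of 26 above and 2 below, heat shock and protein folding genes 10 of 33 above and 4 below, and imprinted and long noncoding genes 2 of 26 above and 5 below as deposited, or 3 and 2 with centred arrays.

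The study also asked about noncoding RNA, of which 1126 named genes were measured. A whole-transcript array reads hairpin precursors and host transcripts rather than mature microRNA, and 434 of 877 microRNA features averaged below the median of all values. Of the 877, 32 lay above and 175 below in all MIX mice. With centred arrays the counts were 93 above and 84 below, and with quantile normalization 33 and 146, so the direction depends on the scaling. Long noncoding genes had 6 of 153 above and 29 below, and 20 and 12 with centred arrays, and small nucleolar genes 1 of 62 above and 1 below.

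Of the microRNA genes among the 6 noncoding genes with the smallest p each way, those with an entry in the sequence table are shown by their mature sequences from RefSeq (GRCm38.p6) with the seed, bases 2 to 8, in capitals, because the seed sets which targets a microRNA can pair with. The features cannot tell the arms of a hairpin apart, and no seed is shared among them.
miR-1251-5p: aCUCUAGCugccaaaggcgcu
miR-1251-3p: cGCUUUGCucagccaguguag
miR-681: cAGCCUCGcuggcaggcagcu
miR-484: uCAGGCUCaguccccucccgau
miR-465a-5p: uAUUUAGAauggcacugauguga
miR-465a-3p: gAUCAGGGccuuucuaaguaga

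On the lower side Mir1251 was at 4.09, 4.16 and 4.60 in CON and 3.61, 3.47 and 3.78 in MIX, and Mir681 at 7.41, 7.65 and 8.16 against 7.18, 7.08 and 6.32. Mir3079 had the widest difference, 5.36, 5.19 and 4.43 against 2.43, 2.89 and 2.83. On the higher side Mir484 was at 3.27, 3.29 and 3.09 against 3.45, 3.49 and 3.67 and Mir465 at 2.10, 2.30 and 2.15 against 2.45, 2.47 and 2.37. All but the Mir681 values and part of the Mir3079 values of CON lie below the array medians, near background. None passed, with adjusted p values from 0.184 for Mir1251 to 0.487 for Mir465 in limma.

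Of the longer RNAs, Tincr, known as a regulator of epidermal differentiation, was at 7.07, 6.95 and 7.68 in CON and 6.81, 6.51 and 6.0 in MIX and so below in all MIX mice. Snhg9, a host of small nucleolar RNA, had 6.79, 6.79 and 6.85 against 6.41, 6.61 and 6.32. Neat1, the scaffold of nuclear paraspeckles, had 8.29, 8.23 and 7.25 against 8.61, 8.62 and 8.50, where CON replicate 3 was 1 unit below the other CON mice. Gata6os (5.39, 5.17 and 5.36 against 5.47, 5.72 and 5.79), Vaultrc5, a vault RNA gene (3.57, 3.80 and 3.54 against 4.20, 4.03 and 4.04), and Xlr4d-ps (3.38, 3.46 and 3.34 against 4.12, 3.97 and 5.89) were also above in all MIX mice.

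Promoters of the 24 genes with the smallest p were searched on both strands for estrogen receptor and AP-1 sites, since AP-1 tethers the receptor at some of its target genes. The windows run from 250 bases before to 50 after the start. The estrogen response element, GGTCANNNTGACC, occurs in 23 of 32851 promoters of this length, its single arm, AGGTCA, in 16.3% and the AP-1 site, TGANTCA, in 7.81%. RefSeq had 11 promoters for 9 of the 12 higher genes and 9 promoters for 9 of the 12 lower genes. The full element was in 0 of the 11 and 0 of the 9. The single arm was in 2 higher promoters, of Alas2 and Krt13, and in 1 lower promoter, of Gfap. The AP-1 site was in 2 higher promoters, both of Krt13, and in 1 lower promoter, of Mannr. A match is only a run of letters, and no match says nothing of the factors.

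The 250 bases before the start are given for Olfm4 (chr14:80000052-80000301, plus strand), as the gene with the largest difference among the 24, and for both starts of Krt13 (chr11:100121567-100121816 and chr11:100120578-100120827, minus strand), as the squamous gene with matches. All are 5′ to 3′ from RefSeq, GRCm38.p6, with matches to the single arm or the AP-1 site in capitals.
Olfm4: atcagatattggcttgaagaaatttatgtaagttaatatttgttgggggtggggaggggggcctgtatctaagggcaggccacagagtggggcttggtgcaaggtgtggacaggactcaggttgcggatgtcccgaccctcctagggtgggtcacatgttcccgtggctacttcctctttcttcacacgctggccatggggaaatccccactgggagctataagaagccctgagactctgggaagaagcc
Krt13 first start: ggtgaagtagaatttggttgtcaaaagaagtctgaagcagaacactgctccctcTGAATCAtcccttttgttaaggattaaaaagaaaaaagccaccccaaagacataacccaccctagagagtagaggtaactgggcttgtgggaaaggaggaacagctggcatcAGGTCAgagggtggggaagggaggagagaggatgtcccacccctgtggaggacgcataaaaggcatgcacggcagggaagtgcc
Krt13 second start: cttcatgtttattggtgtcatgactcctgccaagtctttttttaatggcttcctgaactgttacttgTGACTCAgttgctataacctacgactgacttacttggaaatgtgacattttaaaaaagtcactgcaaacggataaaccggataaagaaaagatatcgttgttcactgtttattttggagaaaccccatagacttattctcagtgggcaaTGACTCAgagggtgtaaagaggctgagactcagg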

How the data were processed

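Endometrial RNA of 13 mice was measured on 13 Affymetrix whole-transcript arrays, 1 a mouse, with 250 ng of total RNA for each. The deposited values are log2 expression for 65929 features made by the authors with RMA, which corrects background and sets all arrays to common quantiles before summarising probes, per the submitters' processing notes. The software version, the array library and any filter could not be read from the labels; array medians ran from 4.48 to 4.71, and no further scaling was applied in the main setting.

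Features were named through the platform annotation, with symbols updated by RefSeq: 30890 carried 1 symbol, 1860 several and 33179 none. A gene was represented by its brightest feature with 1 symbol (30428 genes), and features with several symbols, among them those of the adult globins, were not named. limma 3.58.1 (R 4.3.3) fitted 4 group means and the animal code style over all 13 mice, with 8 residual degrees of freedom, moderated variances and Benjamini-Hochberg adjustment over all features at 0.05. The script was tested on simulated data. Lists were described by counts and medians of differences, with no set test.

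Replicate numbers did not pair the mice: deviations of same-numbered MIX and CON mice correlated at 0.081, -0.131 and -0.248. The smallest exact p of 3 mice against 3 is 0.1, and the number of arrays limits the precision. Array intensities hold no read depth. The members and gene lists were chosen with earlier results of these data known.

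Genes were named by rule: all that passed, the 12 smallest p each way and the 10 largest differences each way at p under 0.01 without overlap, up to 4 members a list by p with those against its direction, 6 noncoding genes each way, and estradiol label checks. Predicted genes, clones, olfactory and vomeronasal genes stayed out. Not every list member taken by this rule is described above, among them Dhcr7 and Lpcat3, which ran against their lists. Alternatives were other covariates, mice, filters, scalings, priors and weights.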

Additional observations from a re-analysis of the deposited data

Results flagged for a closer look

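In the E2 group, which has 4 mice, the highest or lowest value was compared with its nearest neighbour for 45 named genes. Kap stood out in E2 replicate 1, at 6.461, with a gap of 0.979 of the group's range, above Dixon's critical value. Chance flags about 1 in 20 groups, and 1 of 45 was flagged here. Kap was among the genes with the largest difference between MIX and CON, where its MIX values were 8.17, 5.06 and 10.11. Groups of 3 mice were not examined in this way.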

How the results depend on the processing

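The count of features that passed between MIX and CON was 2 and moved with most settings. It was 15 without the code style term, 0 with only the 6 MIX and CON mice (7271 at an unadjusted p under 0.05 in limma), 11 among features above the median, 13 among features with 1 symbol, 5 with centred arrays, 1 with quantile normalization, 3 with a trended robust prior and 13 with array weights. Leaving out 1 mouse gave 0 to 89: in the MIX group 40, 89 and 3 without replicates 1, 2 and 3, and 10 or 12 without the lettered mouse of E2 or of HD. With the replicate block 0 passed (4770 at an unadjusted p under 0.05, smallest adjusted p 0.212 in limma). The mice share only a number, so this says nothing of weaker effects.

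Alternatives chosen after seeing the data dropped the code style term and a mouse together, which gave 221 and 10 for replicates 2 and 3 of MIX and 1 for replicate 3 of CON, and scaled the arrays for the list counts. Features without overlap numbered 11793, of which 69.2% were lower in MIX, and 7546 among features above the median. They numbered 13699 with centred arrays (22.0% lower) and 11442 with quantile normalization (52.2% lower).

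Over 25 alternatives the 45 named genes checked kept the sign of their fitted difference, and 19 of them never passed. Bmp5 passed in 11, with differences from -2.06 to -1.50, and Alas2 in 13, from 0.993 to 2.31. Medians of lists moved by more than the spread in 25 cases and by less in 359: without CON replicate 3 the fitted median of interferon genes was -0.748 and that of stromal markers -0.215. The cause was not tested.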
